A study of Arabidopsis thaliana with 18 samples.

Results

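The 38 genes described here encode proteins of the small (40S) subunit of the cytosolic ribosome of Arabidopsis thaliana, from the RPSa to the RPS24 family. They were chosen by gene identity, as loci of the ribosomal protein families RPSa to RPS24 that stand in both deposited gene tables, and they are 38 of the 34212 loci in each table. The leaves came from 3-week-old Columbia-0 plants that were either pad4-1, called the control here, or upf1-3 pad4-1, called the mutant, so that both groups carry the pad4-1 allele and only the mutant carries upf1-3. Seedlings spent 10 days on medium with 1% sucrose and then grew in soil at 22 °C under 16 h of light and 8 h of darkness, with no treatment. Each genotype gave total RNA, RNA bound to single ribosomes (monosomal) and RNA bound to several ribosomes (polysomal), with n = 3 biological replicates of each, or 18 libraries. A genotype without either mutation and a upf1-3 single mutant are not analysed here, so the differences below are those between these 2 genotypes.

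The small subunit binds the mRNA, scans for the start codon and monitors the pairing of codon and tRNA. In plants each of its proteins is encoded by a small family of paralogs, and the genes of a family are often expressed together at unequal levels. Ribosomal protein genes are most active in young, dividing tissue, and their promoters are known for short elements called the telo box and site II. UPF1 is a helicase needed for nonsense-mediated mRNA decay, which removes transcripts whose translation ends abnormally, and PAD4 promotes defence signalling through salicylic acid, so that its loss eases the autoimmune growth defect of plants that lack this decay.

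Promoters, taken as the 250 bases before the annotated gene start in the RefSeq TAIR10.1 genome, were searched on both strands for the telo box (AAACCCTA) and for site II (TGGGCC or TGGGCT). Neither motif contains the other, and in TGGGCCCA the site II letters of both strands overlap and count as 2 matches. Site II stood in 25 of the 38 promoters (65.79%), against 19.18% of the promoters of 27443 nuclear protein-coding genes. The telo box stood in 8 of 38 (21.05%), against 4.49% of all, and 6 held both (15.79% against 1.36%). The promoters of 3 genes are shown because the results turn on these genes. The first pair, AT5G15200 and AT5G39850, encodes the same ribosomal protein family. It had the widest range of log2 fold changes between genotypes of all families in total RNA (1.88), though AT5G39850 itself was not called. AT5G28060 of the RPS24 family had the highest polysome-to-total ratio in both genotypes. Capitals mark each telo box (AAACCCTA, or TAGGGTTT on the other strand) and each site II (TGGGCC or TGGGCT, or GGCCCA or AGCCCA on the other strand), and every sequence runs 5′ to 3′ towards the gene.
AT5G15200 (RPS9 family, chr5:4936430-4936679, minus strand): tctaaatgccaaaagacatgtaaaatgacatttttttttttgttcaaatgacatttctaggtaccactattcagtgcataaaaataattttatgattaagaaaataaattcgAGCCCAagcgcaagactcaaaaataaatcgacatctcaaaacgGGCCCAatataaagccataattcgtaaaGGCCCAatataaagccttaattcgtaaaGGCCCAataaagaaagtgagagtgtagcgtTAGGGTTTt
AT5G39850 (RPS9 family, chr5:15949660-15949909, plus strand): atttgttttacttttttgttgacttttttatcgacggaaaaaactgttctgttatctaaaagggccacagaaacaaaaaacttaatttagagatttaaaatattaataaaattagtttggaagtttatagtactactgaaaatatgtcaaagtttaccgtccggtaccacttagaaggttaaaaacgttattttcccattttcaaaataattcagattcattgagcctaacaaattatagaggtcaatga
AT5G28060 (RPS24 family, chr5:10070900-10071149, minus strand): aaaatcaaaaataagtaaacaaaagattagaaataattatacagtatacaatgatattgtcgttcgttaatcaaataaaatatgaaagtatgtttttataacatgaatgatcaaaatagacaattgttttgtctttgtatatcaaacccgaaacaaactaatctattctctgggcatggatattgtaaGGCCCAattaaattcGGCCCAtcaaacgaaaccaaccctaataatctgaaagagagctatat
AT5G15200 held 1 telo box and 4 site II elements, AT5G28060 held 2 site II elements, and AT5G39850 held neither. Each match is a run of letters and was not tested as a binding site.

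Libraries held 16325537 to 81528839 estimated counts each. The share of chloroplast genes ran from 20.7 to 74.1% and was highest in the monosomal (59.9%) and polysomal (74.1%) libraries of control replicate 1. Levels in CPM are counts scaled by library size and by the TMM factor of the library. UPF1 (AT5G47010), the gene that upf1-3 disrupts, stood at 61.7, 76.1 and 69.9 CPM in control total RNA against 39.3, 24.8 and 36 CPM in the mutant. All 3 mutant libraries were lower. In monosomal RNA it stood at 48.1, 46.6 and 42.8 CPM against 37.5, 43.3 and 39.3 CPM, where mutant replicate 2 overlapped the control, and in polysomal RNA at 49.7, 49.6 and 46.4 CPM against 26.4, 32.7 and 65.6 CPM. The polysomal library labelled mutant replicate 3 was thus above all control libraries of its kind. Counts over the whole gene do not show whether the transcript is intact, so they check the labels only in part, and the members' medians and counts of calls in polysomal RNA are also given without it. PAD4 (AT3G52430) stood at 1.31 to 1.78 CPM in control and at 3.57, 40.5 and 4.42 CPM in mutant total RNA, where replicate 2 stood apart. That library also held 10.4% nuclear ribosomal RNA, against 0.103 to 2.03% in the other total RNA libraries. Leaf markers were abundant in all libraries, with summed levels of 17800 to 20900 CPM in control and 5720 to 12200 CPM in mutant total RNA and 9040 to 21500 CPM elsewhere, and root hair and seed markers stayed at or under 1.47 CPM. Clock markers also differed between libraries. CCA1 and LHY, which peak at dawn, stood at 0.443 to 12.3 CPM in all control libraries and in mutant total RNA replicates 1 and 2, but at 51.5 to 609 CPM in mutant total RNA replicate 3 and in all mutant monosomal and polysomal libraries, and FKF1 and GRP7, which peak later in the day, were low in those same libraries. In monosomal and polysomal RNA, clock phase and genotype therefore cannot be told apart.

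Most of the small-subunit genes were lower in the mutant in total RNA. With edgeR's quasi-likelihood test and Benjamini-Hochberg adjustment over all genes, 33 of the 38 fell and 0 rose, against a background of 12.5% of 20302 tested genes that fell and 15.3% that rose. Two-sided p-values without adjustment were under 0.05 for 36 members, and none of these was higher. The share of all genes under that threshold is not given, here or below, so such counts are not read against a background. The median log2 fold change of the 38 was -1.24 (range -2.91 to 0.50), against 0.03 for all tested genes. In 36 members every mutant library lay below every control library, against 23.8% of all tested genes. Together the 38 genes took 0.955, 1.15 and 1.11% of the counts of nuclear protein-coding genes in the control against 0.497, 0.548 and 0.575% in mutant libraries, a ratio of means of 0.504. The 3 mutant libraries were all lower, and the groups did not overlap.

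The number of calls depended on single libraries. Without control replicate 2 it was 15, where 3.88% of all genes were called lower, and without control replicate 3 it was 21, where 6.28% were. The calls of 15 genes held whichever library was left out, among them RPS15A, PFL, AT1G34030, AT3G02560, AT3G04840, AT3G04920, AT4G25740, RPS6, AT4G34670, AT5G15200, AT5G16130 and AT5G28060. The other 18 calls in total RNA were lost without at least 1 library. Without mutant replicate 3, the library with high CCA1 and LHY, 34 genes were called lower. For that fit the share of all genes is not given here, and the part of clock phase was not tested. Markers of dividing cells moved with the result: all 6 of 6 fell in total RNA, and their summed level was 112 to 143 CPM in the control and 16.1 to 41.9 CPM in the mutant. No dividing cell marker was at 0. In bulk leaf RNA, fewer cells of a type and less RNA per cell cannot be told apart, and the part of dividing cells in the difference was not tested. The sums of the 4 leaf markers, given above, did not overlap between genotypes in total RNA either, and 1 of the 4 fell (median -1.29). Singly, CAB2 (2660 to 4060 CPM in control, 177 to 2950 CPM in mutant libraries) and RCA (1800 to 2910 and 1070 to 3350 CPM) overlapped. The 7 flower and anther markers summed to 3.10 to 16.5 CPM in the control and 0.391 to 3.17 CPM in mutant total RNA, and 0 of the 5 tested fell (median -1.64). The part of both lists in the difference was not tested.

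**Figure D1:**
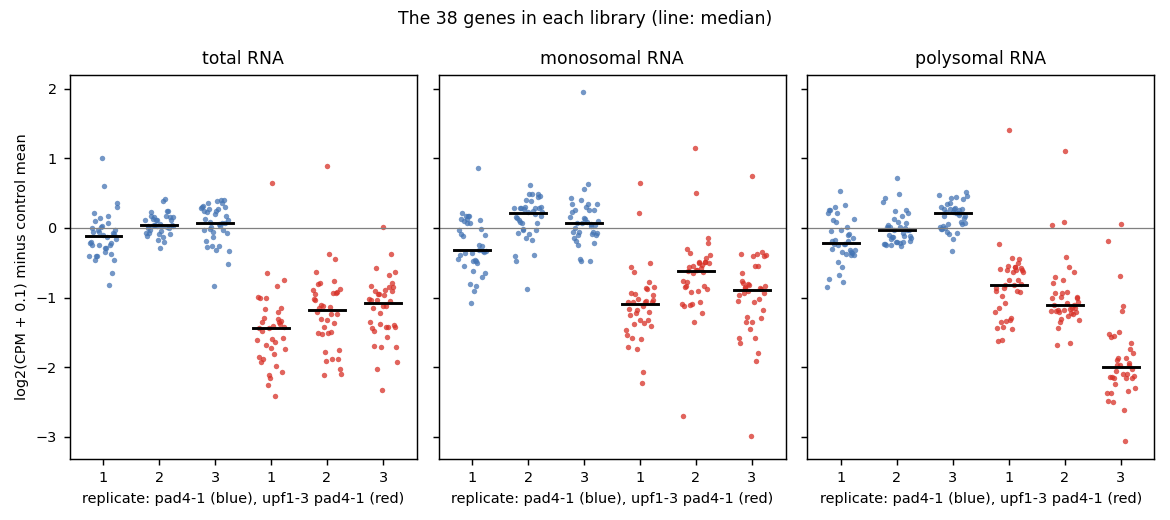
Difference of each of the 38 genes from its control mean, as log2(CPM + 0.1), in each of the 18 libraries, with 1 point per gene and a black line at the median. The medians of the 3 mutant total RNA libraries lie at -1.43, -1.18 and -1.09, and polysomal mutant replicate 3 lies lowest at -2.

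Proteins that line the mRNA channel come first. RPS3 (uS3) and RPS9 (uS4) stand at the mRNA entry, and RPS2 (uS5) lies beside them. AT2G31610 (RPS3 family) stood at 242, 287 and 337 CPM in control total RNA against 106, 139 and 139 CPM in the mutant, without overlap (log2 fold change -1.18, SE 0.24, edgeR adjusted p = 0.0113). Its paralog AT3G53870 stood at 244, 249 and 240 CPM against 122, 158 and 90.6 CPM (-0.99, SE 0.26, edgeR adjusted p = 0.0257). AT2G41840 of the RPS2 family fell by 1.16 on the log2 scale (SE 0.32, edgeR adjusted p = 0.0299). The RPS9 pair was the only family with members on both sides of 0. AT5G15200 stood at 306, 309 and 377 CPM in control against 99.5, 131 and 151 CPM in mutant total RNA (-1.38, SE 0.25, edgeR adjusted p = 0.00724). AT5G39850 stood at 7.73, 4.14 and 4.04 CPM in control against 7.98, 9.46 and 5.11 CPM in mutant total RNA (0.50, SE 0.36, edgeR adjusted p = 0.323). The AT5G15200 libraries of the 2 genotypes were far apart, while those of AT5G39850 overlapped.

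RPSa, RPS3a (eS1) and RPS14 (uS11) lie near the mRNA exit. P40 (AT1G72370), the main RPSa gene, stood at 443, 639 and 717 CPM in control total RNA against 192, 317 and 289 CPM in the mutant (-1.17, SE 0.30, edgeR adjusted p = 0.024). RPSAb (AT3G04770), its paralog, stood at 8.53, 9.41 and 12.2 CPM against 4.95, 4.85 and 3.84 CPM (-1.14, SE 0.25, edgeR adjusted p = 0.0149). The groups did not overlap for either gene, and the RPSa pair had the narrowest range of all families with 2 or more genes, 0.03 on the log2 scale. Both RPS3a genes fell, AT3G04840 by 1.39 and AT4G34670 by 1.5 on the log2 scale. In the RPS14 family, AT2G36160 fell by 1.23 and AT3G52580 by 1.08, and AT3G11510 stood at 75.4, 103 and 85.9 CPM against 34.1, 64.2 and 67.2 CPM, lower in all 3 mutant libraries but not called (-0.67, SE 0.30, edgeR adjusted p = 0.124).

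RPS6 (eS6) is the substrate of the S6 kinase, which the TOR kinase activates. The gene RPS6 (AT4G31700) stood at 199, 209 and 201 CPM in control total RNA against 63.1, 82 and 50 CPM in the mutant (-1.64, SE 0.25, edgeR adjusted p = 0.00401). EMB3010 (AT5G10360), the other gene of the family, stood at 160, 212 and 200 CPM against 94.3, 65.6 and 98.2 CPM (-1.15, SE 0.25, edgeR adjusted p = 0.0139). Both were lower in every mutant library. Among 8 tested genes of TOR and S6 kinase signalling, 2 rose and 1 fell in total RNA, against backgrounds of 15.3% and 12.5% of all genes, with a median of 0.24. Those that rose were the S6 kinase genes S6K2 (2.88, SE 0.37, edgeR adjusted p = 0.00269) and PK1 (AT3G08730; 1.49, SE 0.28, edgeR adjusted p = 0.0084), and TAP46, a regulator of phosphatases, fell (-0.89, SE 0.21, edgeR adjusted p = 0.0176).

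Proteins of the head of the subunit are RPS10 (eS10), RPS16 (uS9) and RPS18 (uS13), the last of which touches the large subunit. PFL (AT1G22780), an RPS18 gene named for the pointed first leaves of its mutant, stood at 124, 124 and 149 CPM in the control against 31.5, 35.6 and 50.3 CPM in the mutant (-1.75, SE 0.25, edgeR adjusted p = 0.00353). AT1G34030 of the same family stood at 77.8, 86 and 75.8 CPM against 26.7, 23.5 and 29.6 CPM (-1.59, SE 0.20, edgeR adjusted p = 0.00252). RPS18C (AT4G09800) stood at 57.9, 66.2 and 69.5 CPM against 38.3, 35.1 and 41.4 CPM (-0.75, SE 0.19, edgeR adjusted p = 0.0246). None of the 3 overlapped between genotypes, and RPS18C fell least. In the RPS10 family, AT4G25740 and AT5G52650 fell by 1.35 and 1.34 on the log2 scale. RPS10B (AT5G41520) stood at 11.6, 14.3 and 19.4 CPM against 5.52, 11.4 and 7.92 CPM, with a gap between groups too small for a call (-0.87, SE 0.33, edgeR adjusted p = 0.0818). AT2G09990 of the RPS16 family fell by 1.00.

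RPS4, RPS7, RPS13, RPS15a and RPS24 build the body and platform. AT5G28060 (RPS24) fell from 130, 107 and 83.6 CPM to 31.6, 24.4 and 27.7 CPM (-1.94, SE 0.24, edgeR adjusted p = 0.00252). Its paralog AT3G04920 stood at 102, 89 and 55.9 CPM against 29.8, 19.6 and 24.4 CPM (-1.74, SE 0.29). The mutant libraries of both lay well below all controls. The RPS7 genes spread more widely. AT5G16130 stood at 124, 133 and 113 CPM against 28.3, 28.4 and 47.2 CPM (-1.83, SE 0.27, edgeR adjusted p = 0.00373), and AT3G02560 at 102, 99.4 and 77.4 CPM against 19.3, 34.4 and 39.6 CPM (-1.58, SE 0.30). AT1G48830 stood at 53.2, 56.7 and 55.8 CPM against 35.3, 25.3 and 28.6 CPM (-0.89, SE 0.20, edgeR adjusted p = 0.0168). All 3 were lower in every mutant library.

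The RPS4 pair, AT2G17360 at 149, 156 and 115 CPM in control against 54.3, 79.1 and 42.9 CPM in mutant total RNA and AT5G07090 at 106, 171 and 171 CPM against 39.6, 65.8 and 77.8 CPM, fell alike, by 1.25 and 1.29. Their range of 0.04 on the log2 scale was the second narrowest of the 15 families with 2 or more genes. RPS15A (AT1G07770) fell by 1.15. In the RPS13 family, AT3G60770 fell by 0.97, and RPS13A (AT4G00100), also known for pointed leaves when mutated, stood at 67, 158 and 156 CPM against 66, 61.8 and 74.3 CPM, where control replicate 1 lay among the mutant libraries (-0.92, SE 0.34, edgeR adjusted p = 0.078).

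**Figure D2:**
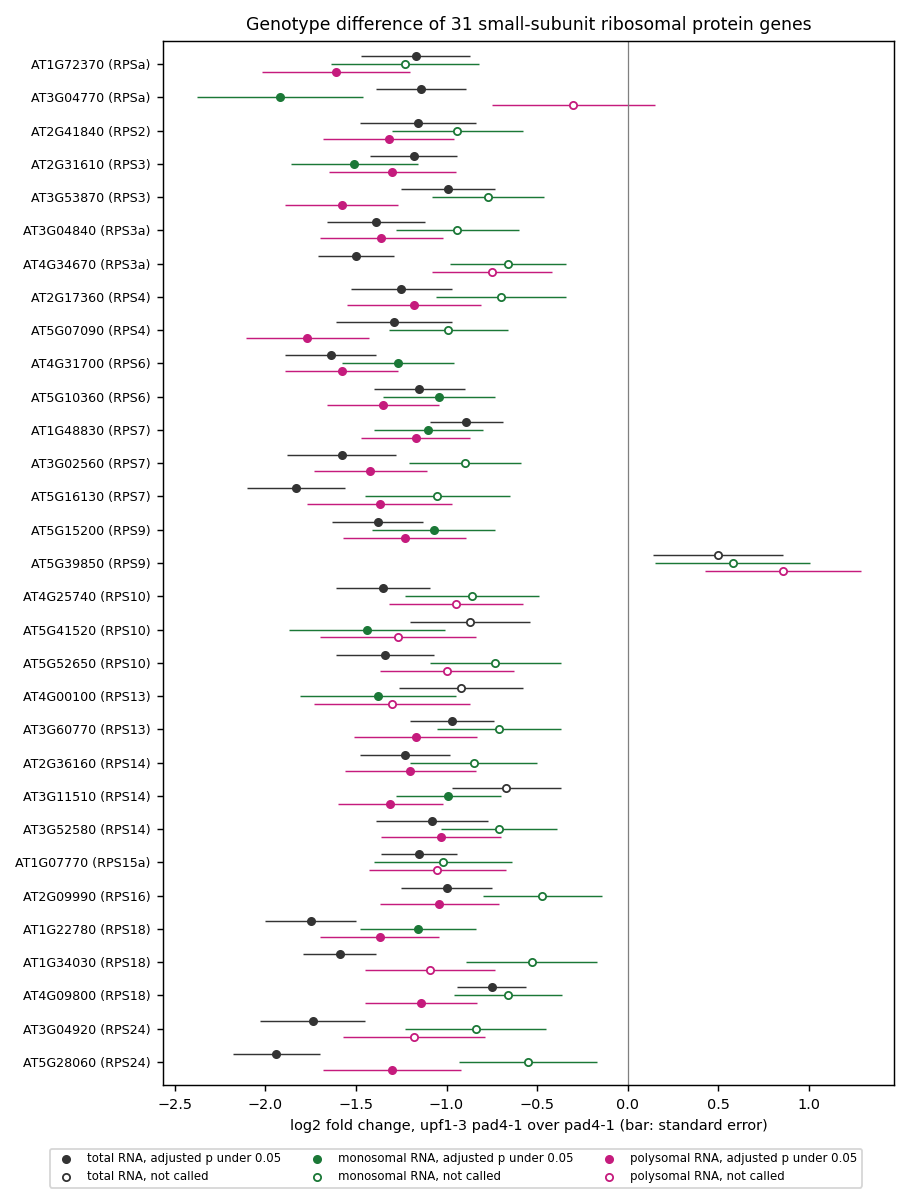
Log2 fold change of the mutant over the control for each of 31 genes (rows, with the family in brackets) in total (black), monosomal (green) and polysomal RNA (pink), with bars of 1 standard error and filled points where the edgeR adjusted p is under 0.05. AT5G39850 is the only gene to the right of 0, in all 3 kinds of RNA, and none of its points is filled.

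The levels of the 38 genes differed widely per kilobase of annotated transcript. In control total RNA, P40 stood at 486 ± 114 CPM per kilobase (SD, n = 3) and AT5G15200 at 355 ± 42.9. Near the other end stood RPSAb (7.69 ± 1.46) and AT5G39850 (5.09 ± 2.02 CPM per kilobase). In mutant total RNA P40 was highest (216 ± 53.3). AT5G28060, rank 16 in control total RNA, was rank 2 in control polysomal RNA at 474 ± 141 CPM per kilobase.

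Ratios of paralogs within a library do not depend on scaling. Of 25 pairs, 5 in total, 6 in monosomal and 2 in polysomal RNA did not overlap between genotypes. Under an exact permutation of 3 against 3 libraries such separation has a chance of 0.1 for each pair, so the separated pairs below are a description. The log2 ratio of AT5G15200 to AT5G39850 was 5.31, 6.22 and 6.54 in control, against 3.64, 3.80 and 4.88 in mutant total RNA, a difference of -1.92. It was 5.28, 5.48 and 4.72 against 3.19, 4.04 and 3.05 in monosomal RNA (-1.73) and 5.30, 3.85 and 5.17 against 2.61, 2.48 and 2.73 in polysomal RNA (-2.16, or -2.22 without the library labelled mutant replicate 3). In each kind of RNA all mutant ratios were below all control ratios. An exact two-sided permutation test of 3 against 3 libraries gave p = 0.1 each time, the smallest it can give, and the values adjusted over 25 pairs in 15 families were 0.5, 0.417 and 0.833. AT5G39850 thereby made up 1.62% ± 0.746 (SD, n = 3) of the CPM of its family in control total RNA and 5.80% ± 2.22 in the mutant, and 3.88% ± 2.26 and 14.1% ± 1.06 in polysomal RNA. The coding sequences of the pair are 80.4% identical, and their longest identical run is 25 bases. Coding identity between paralogs of the 15 families ran from 70.4% in the RPSa pair upwards, so reads from conserved stretches could be shared within a family.

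In the RPS18 family, the log2 ratio of PFL to RPS18C in total RNA was 1.10, 0.90 and 1.10 in the control, against -0.28, 0.02 and 0.28 in the mutant, a difference of -1.02 (exact permutation p = 0.1, adjusted 0.5). The ratio of AT1G34030 to RPS18C was 0.43, 0.38 and 0.12 against -0.52, -0.58 and -0.49, a difference of -0.84, with the same exact permutation p = 0.1. Neither ratio overlapped between genotypes, and RPS18C made up 23.3% ± 0.892 (SD, n = 3) of the family's CPM in the control against 37.0% ± 2.78 in the mutant. In monosomal RNA the ratio of PFL to RPS18C was lower in the mutant by less (0.31, 0.66 and 0.66 against 0.09, -0.12 and 0.31, a difference of -0.45), without overlap before rounding. The ratio of AT1G34030 to RPS18C overlapped there (0.16), and the share of RPS18C was 26.6% ± 3.01 in control against 28.4% ± 3.61 in mutant libraries. In polysomal RNA its share was 42.7% ± 5.75 in the control and 44.6% ± 3.16 in the mutant, and both ratios overlapped. The ratio of AT1G48830 to AT5G16130 in the RPS7 family differed the other way in total RNA, with -1.22, -1.22 and -1.02 against 0.32, -0.17 and -0.72, a difference of 0.97 without overlap (exact permutation p = 0.1), but in monosomal and polysomal RNA it overlapped.

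**Figure D3:**
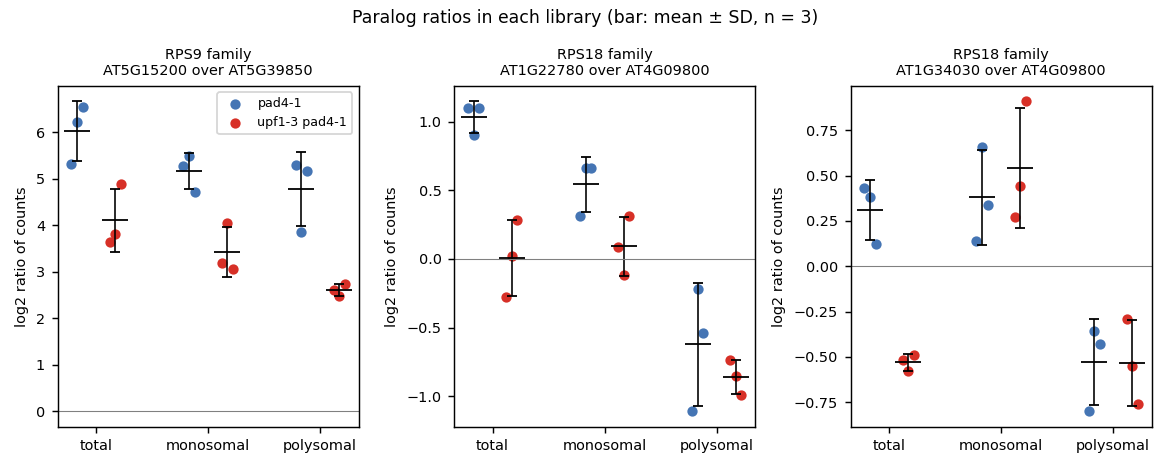
Log2 ratio of the counts of 2 paralogs in each library for 1 pair of the RPS9 family and 2 pairs of the RPS18 family, with the control in blue, the mutant in red and bars of the mean ± SD (n = 3). The RPS9 ratio is lower in the mutant in all 3 kinds of RNA, by 1.92, 1.73 and 2.16, and the RPS18 ratios separate most in total RNA.

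The same genes were then read in RNA bound by ribosomes. In monosomal RNA, 11 of the 38 fell and 0 rose by edgeR, against a background of 4.60% of 20895 tested genes that fell and 8.07% that rose. The unadjusted p was under 0.05 for 27, and neither this count nor the polysomal one below has a background share. The median was -0.92 (range -1.92 to 0.58), against 0.02 for all genes, and in 28 members all mutant libraries lay below all control libraries, against 14.6% of all genes. Their summed share of nuclear protein-coding counts was 1.05, 1.22 and 1.09% in the control, against 0.636, 0.731 and 0.575% in the mutant. In polysomal RNA, 25 fell and 0 rose, against 5.04% of genes that fell and 8.34% that rose, and 34 had an unadjusted p under 0.05. The median there was -1.23 (range -1.77 to 0.86), against 0.03, and 33 members had no overlap, against 16.6%. The share was 1.07, 1.18 and 1.36% in the control, against 0.698, 0.612 and 0.296% in the mutant, where the library labelled replicate 3 was lowest. The ratio of mean shares was 0.445, or 0.544 without that library, and the median was -0.96 without it.

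These counts also rested on the scaling and on single libraries. Without TMM scaling the median of all genes shifted to 0.62 in monosomal and 0.47 in polysomal RNA, and no member was called in either. How many of all genes were called in those fits is not given here, so this is not read against a background. Relative to that shift the members' medians were -0.94 and -1.20, against -0.94 and -1.27 with TMM. The counts of members without overlap also rest on TMM-scaled CPM, and overlap was not counted without it. TMM factors ran from 0.478 in control polysomal replicate 1 to 1.43 in mutant monosomal replicate 2. The summed shares use no TMM factor. In monosomal RNA no call held in every fit that left out 1 library, and the count fell to 2 without mutant monosomal replicate 3, to 3 without control monosomal replicate 2 or 3, to 4 without mutant monosomal replicate 1, to 6 without mutant monosomal replicate 2 and to 7 without control polysomal replicate 2, and reached 18 without mutant polysomal replicate 3. In the same fits 1.87 to 3.43% of all genes were called lower, and 5.46% in the last. In polysomal RNA it was 9 without mutant replicate 3, 10 without control replicate 3 and 15 without control replicate 2, where 1.86, 2.11 and 2.38% of all genes were called lower, and 9 calls held throughout. DESeq2 called 20 members lower in monosomal RNA, against 7.68% of all genes, and 32 in polysomal RNA, against 7.26%. Dividing cell markers moved here too, with summed levels of 119 to 152 CPM against 27.2 to 40.2 CPM in monosomal RNA and 154 to 238 CPM against 15.5 to 77.3 CPM in polysomal RNA, and 5 and 3 of the 6 fell. Flower and anther markers, which include AP3 and PI, stood at 7.65 to 146 CPM in control and 1.40 to 3.99 CPM in mutant monosomal RNA, and at 3.29 to 46.4 CPM and 0.797 to 8.34 CPM in polysomal RNA. Of the 4 leaf markers, 0 fell and 0 rose in monosomal (median 0.26) and in polysomal RNA (median -0.05). The part of these marker lists in the difference was not tested.

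Of the 33 genes that fell in total RNA, 23 also fell in polysomal and 8 in monosomal RNA, which is 23 of 25 and 8 of 11 of the calls there. Fewer, 6 genes, fell in all 3 kinds of RNA, and AT5G39850 alone fell in none. In monosomal RNA the lowest values belonged to RPSAb, at 11.2, 8.56 and 15.4 CPM in the control against 3.84, 1.67 and 3.76 CPM in mutant libraries (-1.92, SE 0.46, edgeR adjusted p = 0.0133), and to AT2G31610 (RPS3), at 231, 152 and 269 CPM against 64.6, 97.2 and 67.3 CPM (-1.51, SE 0.35, edgeR adjusted p = 0.0117). Neither gene overlapped between genotypes there. RPS10B and RPS13A, which were not called in total RNA, fell by 1.44 (SE 0.43, edgeR adjusted p = 0.0382) and 1.38 (SE 0.43, edgeR adjusted p = 0.0456). RPS10B stood at 17.2, 49.7 and 39.9 CPM in the control against 6.86, 17.2 and 15.4 CPM in the mutant. RPS13A stood at 276, 116 and 110 CPM against 84, 65.3 and 43.6 CPM, with control replicate 1 far above the other libraries. Among the values nearest 0 were those of AT2G09990 (-0.47), AT1G34030 (-0.53) and AT5G28060 (-0.55), none of them called. AT5G39850 stood at 4.40, 5.74 and 9.11 CPM in the control against 9.65, 8.73 and 10.4 CPM in the mutant (0.58, SE 0.43, edgeR adjusted p = 0.408).

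In polysomal RNA AT5G07090 (RPS4) fell most, from 273, 235 and 253 CPM to 99.4, 79.2 and 44.5 CPM (-1.77, SE 0.34, edgeR adjusted p = 0.00253). P40 stood at 346, 812 and 870 CPM against 272, 273 and 121 CPM (-1.61, SE 0.41, edgeR adjusted p = 0.0172). For both of these genes the lowest library was mutant replicate 3, and on this TMM-scaled CPM no groups overlapped. Without that library the call of P40 was lost (-1.31, edgeR adjusted p = 0.0804). RPS6 stood at 281, 285 and 403 CPM against 119, 138 and 67 CPM (-1.58, SE 0.31, edgeR adjusted p = 0.00333), and EMB3010 at 406, 350 and 398 CPM against 211, 150 and 92.5 CPM (-1.35, SE 0.31, edgeR adjusted p = 0.00964). The RPS6 genes also fell in monosomal RNA, by 1.27 and 1.04, and so belong to the 6 that fell throughout. AT3G53870 (RPS3) stood at 163, 115 and 135 CPM against 44.1, 63.5 and 30.8 CPM (-1.58, SE 0.31, edgeR adjusted p = 0.00344). At the upper end, RPSAb stood at 6.19, 4.56 and 5.41 CPM against 2.90, 5.51 and 4.69 CPM with overlap (-0.30, SE 0.45, edgeR adjusted p = 0.741), AT4G34670 reached -0.75 and AT4G25740 -0.95. AT5G39850 stood at 4.64, 11.3 and 6.15 CPM in the control against 18.3, 14.9 and 7.17 CPM in the mutant, with overlap (0.86, SE 0.43, edgeR adjusted p = 0.215).

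Whether ribosome loading itself differed was asked with ratios of polysomal to monosomal and to total RNA, with TMM scaling in each. For polysomal over monosomal RNA, edgeR called 0 of the 38 in either direction in the control, against a background of 0.177% of genes lower and 0.153% higher, and 0 in the mutant, against 0.536% lower and 0.570% higher. Unadjusted p-values were under 0.05 for 6 and 7 members, without a share of all genes to set beside them. DESeq2 called 1 lower in the control, against 1.28% of all genes, and 3 in the mutant, against 1.69%. The medians were -0.20 and -0.40, against 0 and 0.03 for all genes, and the mutant median was -0.13 without the library labelled mutant polysomal replicate 3. Replicate numbers were taken to pair the monosomal and polysomal libraries of a genotype. With the replicate number as a block within genotype, 1 member was called lower in the control, against 1.44% of all genes, and 3 in the mutant, against 1.64%. AT4G25740 (RPS10) was lowest in both genotypes, at 35.9, 77.8 and 60.7 CPM in monosomal and 18, 24.3 and 27.7 CPM in polysomal RNA of the control, and at 18.3, 36.3 and 41.7 CPM against 9.16, 17.1 and 9.98 CPM in the mutant. The polysomal libraries were all below the monosomal ones in both. Its log2 ratio was -1.32 (SE 0.37, edgeR adjusted p = 0.138) and -1.41 (SE 0.37, edgeR adjusted p = 0.0814), or -1.27 (edgeR adjusted p = 0.0277) and -1.38 (edgeR adjusted p = 0.0166) with the block.

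With the block the mutant calls also included AT2G36160 of the RPS14 family (-1.18, edgeR adjusted p = 0.0484, and -1.02 without the block). AT3G53870 (-1.03) and AT3G52580 (-1.01) were called in neither fit. In the control, RPSAb (-1.12) and RPS10B (-0.88) were also low. At the upper end in the control stood AT2G41840 of the RPS2 family, at 87.9, 129 and 136 CPM in monosomal and 292, 208 and 241 CPM in polysomal RNA, without overlap (1.07, SE 0.36, edgeR adjusted p = 0.226). Also high were RPS18C (0.72), AT5G28060 (0.70) and EMB3010 (0.43). In the mutant AT2G41840 was again highest (0.69, SE 0.36), ahead of RPSAb (0.50), AT5G39850 (0.49), RPS18C (0.24) and AT4G34670 (0.18), and these groups overlapped.

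The interaction term, which asks whether the polysome-to-monosome ratio differed between genotypes, called 0 members, as it called 0% of all 20895 genes, and 1 member had an unadjusted p under 0.05. That member was RPSAb, whose log2 ratio was 1.62 higher in the mutant (SE 0.64, edgeR adjusted p = 1). The median over the members was -0.32, and among the lowest were AT3G53870 (-0.81, SE 0.43), AT5G07090 (-0.78) and AT5G28060 (-0.75). Also high were AT5G39850 (0.28) and AT2G31610 (0.21). DESeq2 also called 0, against 0.00957% of all genes. Without the library labelled mutant polysomal replicate 3 the median was -0.04.

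For polysomal over total RNA, which were deposited in separate tables, table and kind of RNA cannot be told apart. In the mutant, clock phase also differed between these kinds of RNA. Only total RNA replicate 3 had high CCA1 and LHY, as all polysomal libraries did. In the fit of all 18 libraries, 3 of 5 clock markers were called lower and 1 higher in the mutant, against 0 and 0 in the control. The part of clock phase in the mutant ratios and in the interaction term was not tested. AT5G28060 of the RPS24 family stood out above. On the separately scaled CPM of the 2 tables it had 130, 107 and 83.6 CPM in total and 319, 359 and 546 CPM in polysomal RNA of the control, and 31.6, 24.4 and 27.7 CPM against 256, 158 and 80.8 CPM in the mutant. In a joint fit its log2 ratio was 1.85 (SE 0.36, edgeR adjusted p = 0.0116) in the control and 2.43 (SE 0.37, edgeR adjusted p = 0.000826) in the mutant. On the separately scaled CPM, all polysomal libraries were above all total RNA libraries of the same genotype. Its paralog AT3G04920 had a ratio of 1.11 (SE 0.38, edgeR adjusted p = 0.125) in the control and of 1.61 (SE 0.38, edgeR adjusted p = 0.0125) in the mutant, the latter lost without mutant polysomal replicate 1 (edgeR adjusted p = 0.0674) or mutant total replicate 2 (edgeR adjusted p = 0.0758). The control call of AT5G28060 was lost without control polysomal replicate 3, control total replicate 2 or control total replicate 3 (edgeR adjusted p = 0.0677, 0.0584 and 0.0951), and its mutant call held without each library.

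AT4G25740 (RPS10) stood out below, with a ratio of -1.89 (SE 0.35, edgeR adjusted p = 0.00936) in the control and -1.57 (SE 0.35, edgeR adjusted p = 0.00879) in the mutant. The control call was lost without control total replicate 3 (edgeR adjusted p = 0.0582). Both RPS3 genes were called lower in the mutant, AT3G53870 at -1.57 (SE 0.30, edgeR adjusted p = 0.00372) and AT2G31610 at -1.34 (SE 0.32, edgeR adjusted p = 0.0125, or 0.0545 without mutant polysomal replicate 3), with -0.90 and -1.15 in the control, where neither was called. Over the members this made 1 lower and 1 higher in the control, against a background of 1.09% lower and 1.39% higher of 21905 genes, and 3 lower and 2 higher in the mutant, against 3.72% and 5.23%. The medians were 0.13 and 0.08, so as a set the members lay close to all genes (0.03 and -0.02), and without the library labelled mutant polysomal replicate 3 the mutant median was 0.30. Without TMM scaling, no member was called lower in the mutant, where AT4G25740 had an edgeR adjusted p of 0.147. That count has no share of all genes beside it.

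Other members at the ends of the control ratio were RPSAb (-0.97), RPS18C (0.99) and EMB3010 (0.94). In the mutant they were AT3G52580 (-0.80), AT5G15200 (-0.79), AT5G16130 (0.89) and AT3G02560 (0.83). None of these was called. The interaction term for the polysome-to-total ratio called 0 members and 0% of all genes, no member had an unadjusted p under 0.05, and DESeq2 called 0 members, against 0.260% of all genes. Its median over the members was 0, or 0.31 without the library labelled mutant polysomal replicate 3, with AT3G11510 (-0.69), AT3G53870 (-0.66), AT5G07090 (-0.54) and P40 (-0.49) among the lowest and RPSAb (0.75), AT4G34670 (0.69) and AT5G28060 (0.57) among the highest.

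**Figure D4:**
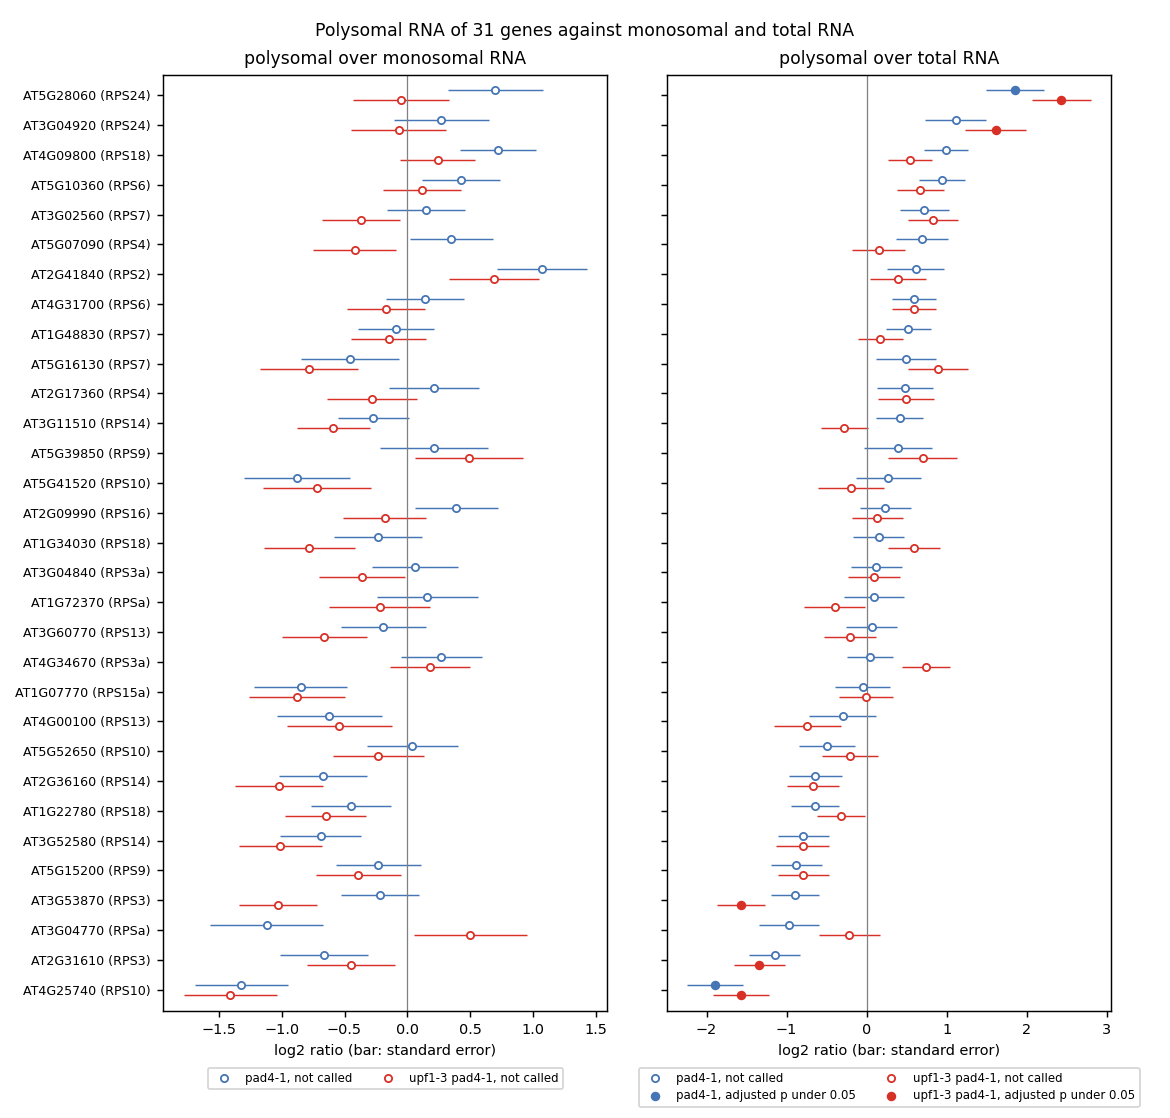
Log2 ratio of polysomal to monosomal (left) and to total RNA (right) for each of 31 genes in control (blue) and mutant (red), with bars of 1 standard error and filled points where the edgeR adjusted p is under 0.05, ordered by the control ratio on the right. AT5G28060 is highest on the right in both genotypes (1.85 and 2.43), and AT4G25740 is lowest in the control (-1.89).

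Promoter motifs and fold changes were set side by side as a description. The 25 genes with site II had a median of -1.35 in total RNA (range -1.94 to -0.87), and the 13 without it -1.13 (range -2.91 to 0.50). In monosomal RNA the medians were -0.90 and -0.99, and in polysomal RNA -1.27 and -1.14, so the order of both groups differed between kinds of RNA. PFL, which fell by 1.75, and RPS18C, which fell by 0.75, both lack site II and the telo box in this window.

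Other genes of the ribosome moved alike. Of 50 tested loci of other small-subunit ribosomal protein genes, 40 fell and 0 rose in total RNA (median -1.32). Of 115 tested large-subunit genes, 106 fell and 0 rose (median -1.52), and of 33 ribosome assembly factors 25 fell and 0 rose (median -1.21), among them FIB2 (-2.16, SE 0.26), a fibrillarin, and SWA1 (-2.15, SE 0.25). All 3 RACK1 genes, which encode a scaffold on the head of the small subunit, fell in total RNA (median -1.91). Of 9 nuclear genes for the plastid small subunit 8 fell and 0 rose (median -1.36). In polysomal RNA 26, 86, 12, 3 and 3 of the same lists fell, and in monosomal RNA 24, 61, 8, 1 and 3. In both kinds of ribosome-bound RNA these calls were lost without TMM scaling, where 0 loci of the 5 lists were called lower and each list's median stayed below that of all genes. How many of all genes were called lower in those fits is not given here.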

How the data were processed

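Estimated counts per gene were deposited by the authors in 2 tables, 1 with 6 total RNA libraries and 1 with 12 monosomal and polysomal libraries, made from strand-specific, single-end libraries depleted of ribosomal RNA, per the labels' protocols. The submitters' processing notes name kallisto 0.43.0, limma and the TAIR10 build, and how transcript estimates were summed per gene is not given in the sources used here. The expected counts were rounded to whole numbers. edgeR 4.0.16 in R 4.3.3 fitted quasi-likelihood models after filterByExpr (minimum count 10) and TMM scaling. P-values were two-sided and adjusted by Benjamini-Hochberg over all tested genes, with calls under 0.05. Total RNA (6 libraries, 4 residual degrees of freedom), ribosome-bound RNA (12 libraries, 8) and all 18 libraries (12, for polysomal over total RNA) were fitted apart. These main fits held no term for replicate number, so paired monosomal and polysomal libraries were treated there as independent. CPM of total RNA and of ribosome-bound RNA come from separate fits, so the tested ratios between them come from the joint fit. A standard error is the log2 fold change over the square root of F. Whether the replicates came from separate plants or pools is not stated beyond their being biological.

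Paralog ratios used counts plus 0.5 and an exact permutation test, and Python 3 scripts with Biopython aligned coding sequences. Gene models, symbols and promoters came from RefSeq TAIR10.1, to which 33437 of 34212 loci matched, including all 38 genes; the genome build of the deposited tables was named TAIR10, and the windows rest on TAIR10.1 gene starts. AT5G15200 and AT5G39850 are annotated there under the bacterial name S4 and belong to the eukaryotic S9 family. Replicate numbers were checked for pairing by correlating deviations from group means: monosomal and polysomal libraries of the same number gave r of 0.47, 0.12 and 0.22 for the control pairs, against 0.33, 0.26 and 0.17 for mutant pairs, and were taken as paired. Control monosomal replicate 2 correlated best with control polysomal replicate 3, not with its own number. Control and mutant total RNA gave 0.18, -0.01 and 0.11, and were not taken as paired. These ranges overlap, so r alone does not settle the pairing, and the calls made with the block within genotype rest on it.

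Members, gene lists, tests and the choice of genes to name were all made with earlier results of these data known. The naming rule takes the 5 lowest and 5 highest members in each comparison, all paralogs of the 4 families with the widest and the 2 with the narrowest range in total RNA, the RPS6 and RPSa genes, and up to 4 members with the smallest p of other lists. Of the 38 genes, 7 enter all counts and medians but are not reported here one by one. On simulated counts of total RNA (20012 genes), 2.67% of the 2-fold changes were recovered, 56.3% of those of 4-fold and 79.2% of those of 8-fold, with 5 false calls. Only 75, 71 and 53 genes were changed at these sizes, while in the data 2531 genes were called lower and 3107 higher. The adjustment was thus stricter in the simulation, and these rates do not give the power of the fit above. Alternatives were DESeq2 1.42.0, limma-voom (limma 3.58.1), no TMM, no count filter, no organelle and ribosomal RNA genes, replicate blocks and leaving out each library. The monosomal and the polysomal libraries were also each fitted alone, and the counts of those fits are not given here. Leaving out both ribosome-bound libraries of control replicate 1 was chosen after seeing the data.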

Additional observations from a re-analysis of the deposited data

How the results depend on the processing

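The number of members called lower was 33 in total, 11 in monosomal and 25 in polysomal RNA, against 12.5, 4.60 and 5.04% of all tested genes. Under any setting run for these 3 comparisons, 0 were called higher. Counts below that stand without the share of all genes in the same fit show only how calls moved with the setting. They are not read against a background. Leaving out each library in turn gave 15 to 34, 2 to 18 and 9 to 28. DESeq2 called 20 lower in monosomal RNA, and without TMM 0 were called lower in monosomal and in polysomal RNA. For polysomal over monosomal RNA, DESeq2 called 1 lower in the control and 3 in the mutant, no count filter 1 and 2, the replicate block 1 and 1, and the replicate block within genotype 1 and 3, while leaving out libraries gave 0 in the control and 0 to 1 in the mutant. The replicate numbers were taken to pair only monosomal with polysomal libraries of a genotype, and the replicate block moved no count of the genotype comparisons by more than 1.5 times. For polysomal over total RNA in the control, DESeq2 called 4 higher and 3 lower, no TMM 0 higher, and limma-voom, no count filter, the replicate block and the fit without organelle and ribosomal RNA genes 2 lower each. Leaving out libraries gave 0 to 2 higher and 0 to 1 lower in the control, and 1 to 3 higher and 2 to 5 lower in the mutant, where no TMM gave 0 lower. Without both ribosome-bound libraries of control replicate 1, 12 were called lower in monosomal and 24 in polysomal RNA. Of 25 pairs of paralogs, 5 in total, 6 in monosomal and 2 in polysomal RNA had no overlap, where the chance is 0.1 for each pair. With 1 library left out the numbers were 6 to 10, 6 to 12 and 3 to 8, where fewer samples make overlap rarer. The cause of the other shifts was not tested.

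Single values that changed sign were mostly near 0. Without TMM these were AT1G34030 (0.02), AT2G09990 (0.08) and AT5G28060 (0.01) in monosomal RNA, RPSAb (AT3G04770, 0.15) in polysomal RNA, RPS18C (AT4G09800, 0) and AT4G34670 (-0.03) for polysomal over monosomal RNA in the mutant, AT2G31610 (-0.08) for the genotype difference of that ratio, and P40 (AT1G72370, 0.10), AT3G11510 (0.03), AT3G53870 (0.11) and AT5G07090 (0.22) for the genotype difference of the polysome-to-total ratio. With 1 library left out, the mutant polysome-to-monosome ratio of AT4G34670 ran from -0.16 to 0.47. The genotype difference of the polysome-to-monosome ratio became -0.13 for AT2G31610 without both ribosome-bound libraries of control replicate 1, -0.07 for AT2G31610 without control polysomal replicate 1 and -0.05 without mutant polysomal replicate 2, and for AT5G39850 -0.05 without control monosomal replicate 3 and -0.01 without mutant polysomal replicate 1, with highest values of 0.42 for AT2G31610 and 0.73 for AT5G39850. The ratio of AT1G34030 to RPS18C (AT4G09800) differed between genotypes by -0.03 to 0.3 in monosomal and -0.14 to 0.10 in polysomal RNA with 1 library left out, the latter being 0.08, 0.04, 0 and 0.10 without control replicate 2, control replicate 3, mutant replicate 2 and mutant replicate 3.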
